A study of Canis lupus familiaris with 8 samples.

Results

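The genes described here are 40 components of skeletal muscle: the proteins of the sarcomere, the calcium, energy and oxygen proteins of the fibre, and the regulators MYOG, MYOD1 and TRIM63. They were chosen by name, and each was read from a probe set, the probes that target 1 transcript together, that the platform annotation pairs with that symbol alone. Where a gene had several, the one with the highest mean was kept. Of the 40 genes, 38 were measured in this way, among 15947 genes in all. CKM, the muscle creatine kinase, had no such probe set, and TPM3, a tropomyosin, shared its probe set with TPM1. The samples were dog maxillary alveolar bone, the part of the upper jaw that holds the tooth roots, on 8 Affymetrix whole-transcript arrays. In group DT6 the RNA came from tissue regrown in a surgical defect, together with its neighbouring bone, at 6 weeks with tooth protraction. Group D6 had the defect alone at 6 weeks and group D2 the defect alone at 2 weeks, while bone near the premolars with no defect served as group C. Each group had 2 arrays, and the digit in a group's name was read as weeks after surgery. The sources used here give no breed, age or animal for an array, so p-values measure only the spread between arrays, which may be technical.

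Skeletal muscle fibres are packed with sarcomeres, in which thick filaments of myosin pull on thin filaments of actin. Calcium released inside the fibre binds troponin, which moves tropomyosin aside and lets the myosin heads attach. Bone makes no sarcomeres, but facial muscles lie over the maxilla, and fibres taken up with a tissue block bring abundant and specific transcripts with them. The values below ask whether any group or any single array carried such transcripts.

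No array stood apart for skeletal muscle, and no member differed between groups past the threshold used here, an adjusted p under 0.05 in limma with Benjamini-Hochberg adjustment over the 15947 genes. Values are the deposited log2 probe set values, in which 1 unit is a doubling of signal. The 38 members lay between 2.91 and 6.89 over all arrays. Of these, 37 were below the median of all genes in every array, against 41.4% of all genes. The exception was TNNI2, the fast inhibitory troponin, which exceeded the array median in DT6 array 1, D6 array 1 and C array 1. The median of the members was 5.03 and 4.74 in DT6, 5.11 and 5.02 in D6, 4.89 and 5.06 in D2, and 5.25 and 4.96 in C. Those medians stood at the 14.6th to the 20.3rd percentile of their arrays. Probes differ in brightness, so these positions give no level of one gene relative to another, and no background signal was used here to say which members were detected.

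The labelled tissue carried its own markers. Of 12 bone genes, 11 or more were above the array median in each array, and COL1A1, the main chain of bone collagen, lay between 13.00 and 13.72. Not all bone genes were so even. DMP1, on the same list, had 12.25 and 6.23 in DT6, 6.82 and 11.84 in D6, 6.40 and 6.89 in D2, and 9.63 and 11.62 in C. In D2 against C, 7 of the 12 bone genes had higher means and 5 lower, and 2 fell past the threshold. Genes of stratified oral epithelium and of airway and gland epithelium set some arrays apart. The median of 10 oral epithelium genes was 9.45 in D6 array 1 and 7.70 in D2 array 2, and 4.99 to 5.84 in the other arrays. That of 8 airway and gland genes was 9.22 to 10.16 in DT6 and D2, and 4.88 to 5.48 in D6 and C. When DT6 or D2 is compared with D6 or C, effects of surgery, time or protraction cannot be told apart from this difference. The shares of all genes given for those comparisons include such genes. For the members, the counts of calls and of groups without overlap that use D6 array 1 or D2 array 2 are also given without both arrays. So are their median differences and larger single differences. This choice was made after seeing the data and leaves 1 array each in D6 and D2.

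**Figure D1:**
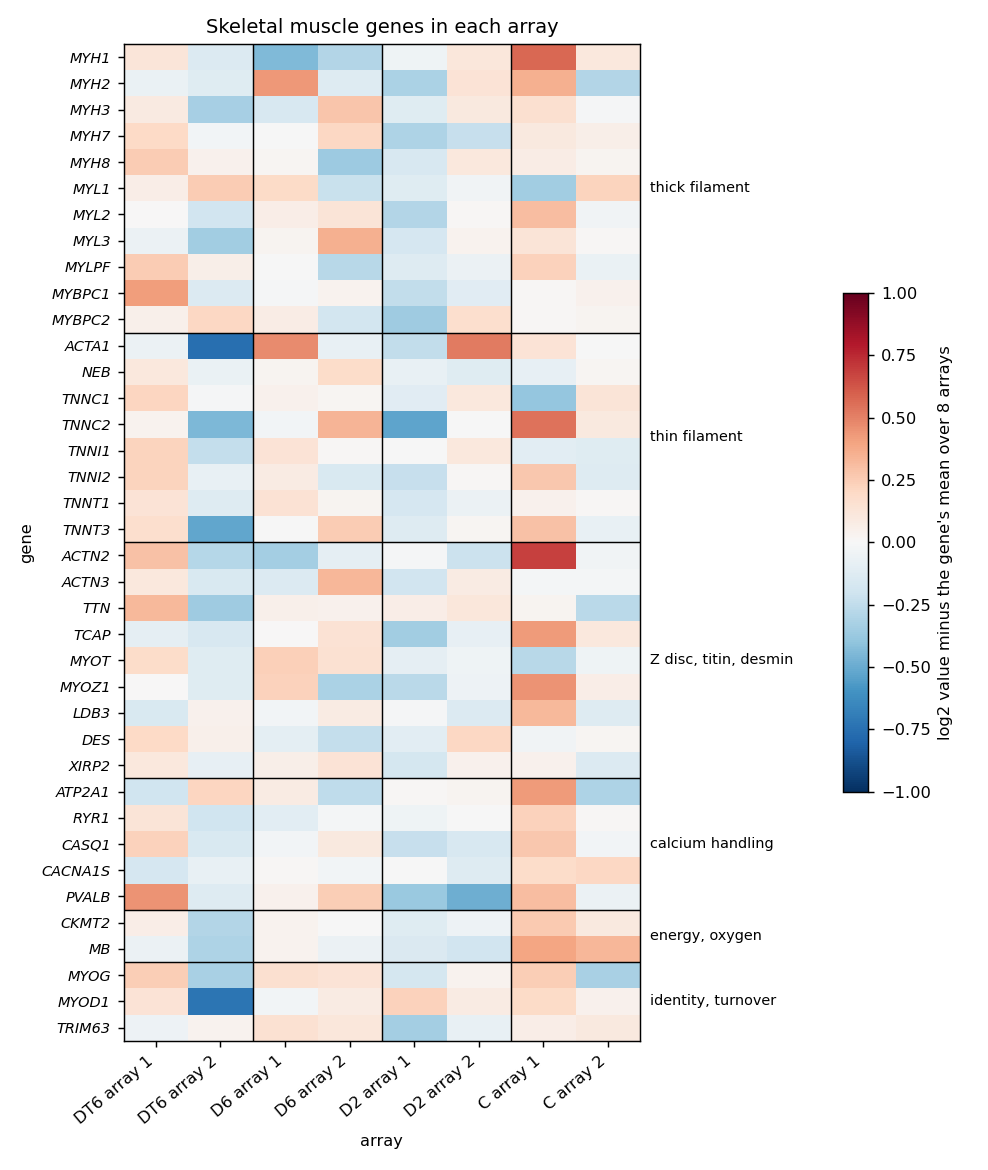
Log2 value of each of the 38 muscle genes (rows, grouped by role) in each of the 8 arrays (columns), shown as the difference from that gene's mean over the arrays. No column is raised or lowered throughout, C array 1 holds the highest value of 15 genes, and D2 array 1 and DT6 array 2 hold the lowest of 13 and 11.

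**Figure D2:**
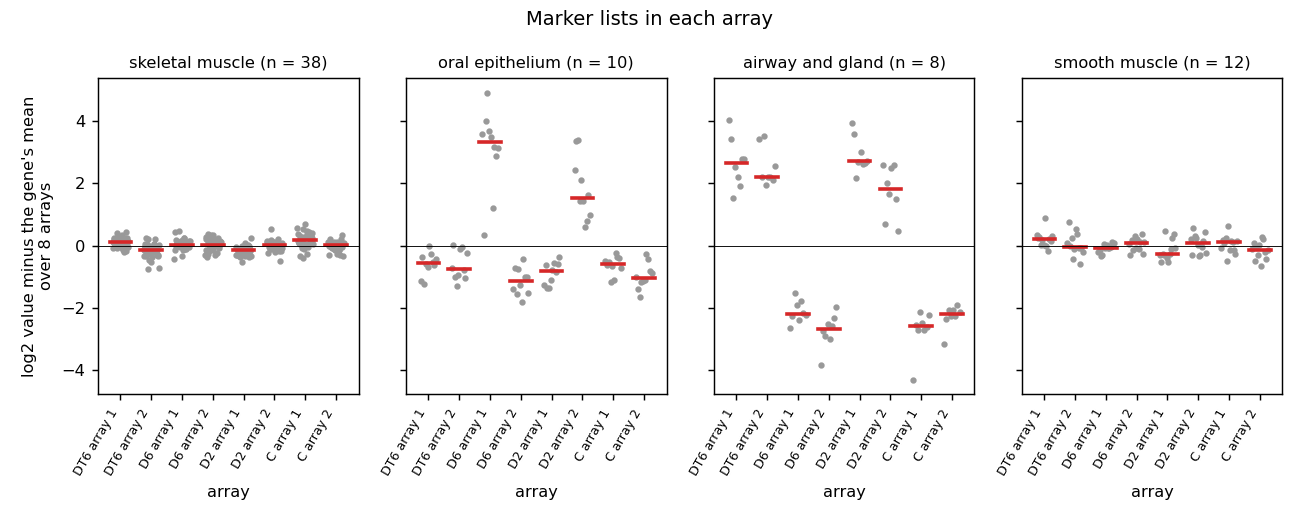
Difference of each gene from its own mean over the 8 arrays (grey points, log2 units) and the median of the list (red bars) in each array, for skeletal muscle, oral epithelium, airway and gland, and smooth muscle genes. The oral epithelium genes are raised in D6 array 1 and D2 array 2 and the airway genes in DT6 and D2, while the skeletal muscle medians stay between −0.15 and 0.19.

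Set against the median of the other 7 arrays, 0 of the 38 members were more than 1 log2 unit higher in any array, and 0 were more than 1 unit lower. The largest such excess was 0.78, for ACTN2, the Z disc protein alpha-actinin 2, in C array 1. By the same measure 9 of 10 oral epithelium genes were over 1 unit higher in D6 array 1, and 9 of 10 in D2 array 2, with KRT13 4.62 and DSG1 6.05 units above in their extreme arrays. All 8 airway genes exceeded 1 unit in each of the DT6 and D2 arrays. Over all genes the share above 1 unit lay between 0.395% and 2.06% per array.

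Small shifts common to many members did appear between arrays. C array 1 held the highest value of 15 of the 38 members, against 17.7% of all genes, and 24.9% of the 7973 genes with means below that of the median gene, a stratum that contains all 38 members. D2 array 1 held the lowest value of 13 and DT6 array 2 that of 11. The same 2 arrays held the lowest value of 14.9% and 25.2% of that stratum. The median of the members relative to each gene's own mean was 0.12 and −0.13 in DT6, 0.03 and 0.03 in D6, −0.15 and 0.00 in D2, and 0.19 and 0.01 in C. Over that stratum the same median was 0.04 and −0.09 in DT6, and 0.01 and 0.01 in D6. It was −0.05 and 0.01 in D2, and 0.07 and −0.02 in C. Array 1 exceeded array 2 for 32 of the 38 members in DT6, 20 in D6, 7 in D2 and 28 in C. Over all genes the shares were 48.3%, 49.4%, 48.9% and 47.3%.

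For 27 of the 38 members the largest gap between replicates was at least as large as the largest difference between group means, as it was for 58.4% of all genes. The range over the 8 arrays had a median of 0.598 over the members, equal at this precision to that over all genes. It ran from 0.30 for NEB, nebulin, which spans the thin filament, to 1.27 for ACTA1, skeletal alpha-actin. A range over 1 unit was seen in 4 members, ACTA1, TNNC2, ACTN2 and MYH1, or 10.5%, and in 16.7% of all genes.

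**Figure D3:**
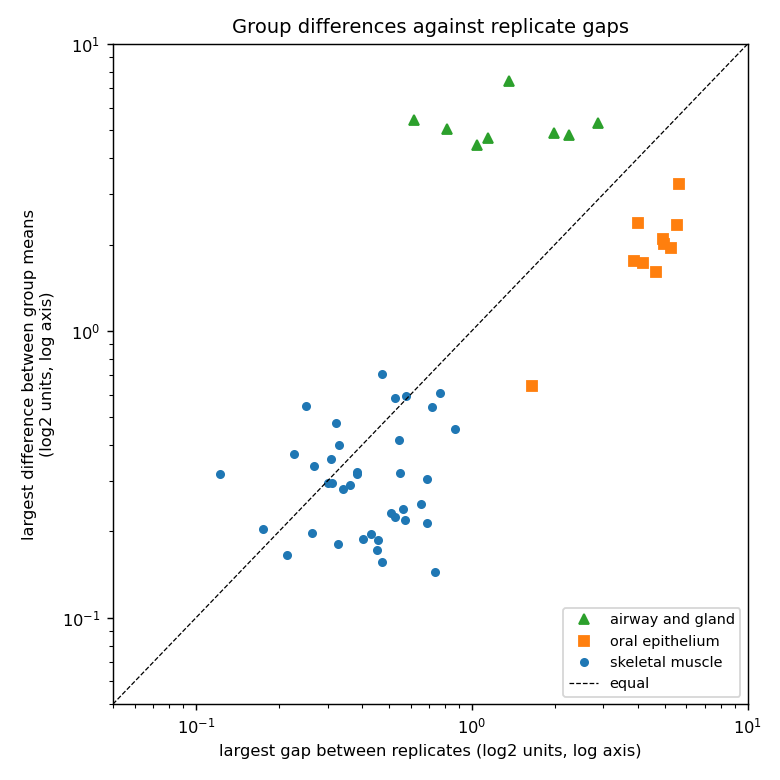
Largest difference between group means (vertical) against the largest gap between the replicates of a group (horizontal), both in log2 units on log axes, for each skeletal muscle, oral epithelium and airway gene. The dashed line marks equality: 27 of 38 muscle genes lie on or below it, as do all 10 oral epithelium genes, while the 8 airway genes lie above it.

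Among the 11 thick filament genes, MYH1, the heavy chain of fast 2X myosin, had the widest range. It had 4.48 and 4.22 in DT6, 3.91 and 4.06 in D6, 4.31 and 4.46 in D2, and 4.93 and 4.46 in C. The D6 arrays were the lowest and did not overlap with C, and the D6 minus C difference of −0.71 ± 0.21 (SE, 2 arrays against 2) was the largest of any member but did not pass in limma (adjusted p = 0.134). It was −0.64 ± 0.30 without the arrays rich in oral epithelium transcripts (adjusted p = 0.644). None of the other heavy chains passed either. MYH2, of fast 2A fibres, lay between 3.84 and 4.59, with its highest value in D6 array 1. MYH7, of slow fibres and heart, lay between 4.33 and 4.84. The developmental chains MYH3 and MYH8, of embryonic and perinatal muscle, lay between 4.41 and 5.01 and between 3.93 and 4.55. MYH8, MYH4, MYH1, MYH2 and MYH3 stand side by side in the dog assembly UU_Cfam_GSD_1.0 and are alike in sequence, so signal may be shared between their probe sets.

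No myosin light chain passed in any comparison. MYL1, the fast essential chain, had 5.18 and 5.37 in DT6, 5.31 and 4.89 in D6, 4.99 and 5.08 in D2, and 4.77 and 5.34 in C. The C arrays spanned almost the whole range and overlapped with every other group, while DT6 lay above D2. Its partner MYLPF, the fast regulatory chain, lay between 5.34 and 5.86. The slow chains MYL2 and MYL3 lay between 3.20 and 3.81 and between 4.66 and 5.37. MYL3 was lower in both DT6 arrays than in both D6 arrays, with a difference of −0.40 ± 0.19 that did not pass in limma (adjusted p = 0.87), and of −0.56 ± 0.28 without the arrays rich in oral epithelium. MYBPC1 and MYBPC2, the slow and fast myosin binding proteins C, lay between 4.27 and 4.93 and between 4.85 and 5.42.

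ACTA1 had the widest range of the thin filament genes. It had 5.41 and 4.72 in DT6, 5.95 and 5.40 in D6, 5.23 and 6.00 in D2, and 5.61 and 5.47 in C. Its highest values fell in D2 array 2 and D6 array 1, the arrays rich in oral epithelium transcripts, and whether the epithelium has a part in them was not tested. Over the whole list, D6 array 1 held the highest value of 4 of 38 members (MYH2, TNNT1, MYOT and TRIM63), beside 8.49% of all genes, and D2 array 2 that of 2 (ACTA1 and DES), beside 8.28%. The group differences of ACTA1 did not pass in limma, the largest being −0.61 ± 0.32 in DT6 against D6 (adjusted p = 0.94). Without D6 array 1 and D2 array 2 that difference was −0.34 ± 0.32.

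The troponins come in slow and fast forms, which were measured by separate probe sets. TNNC2, the fast calcium-binding subunit, had 5.60 and 5.11 in DT6, 5.54 and 5.90 in D6, 5.04 and 5.56 in D2, and 6.11 and 5.66 in C. Both C arrays were above the DT6 and D2 arrays, with differences of −0.53 ± 0.26 in DT6 and −0.58 ± 0.26 in D2 against C (adjusted p = 0.345 and 0.218, limma). The D2 difference was −0.85 ± 0.31 without the arrays rich in oral epithelium (adjusted p = 0.22). TNNC1, its slow and cardiac counterpart, differed by 0.23 ± 0.21 and 0.13 ± 0.21 in the same comparisons. The inhibitory subunits TNNI2 (fast) and TNNI1 (slow) differed by −0.18 ± 0.19 and 0.16 ± 0.18 in D2 against C. For the tropomyosin-binding subunits TNNT3 (fast) and TNNT1 (slow) the values were −0.16 ± 0.24 and −0.14 ± 0.16. None of these differences passed, and whether fast and slow forms differed from each other was not tested.

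In the Z disc and elastic filament group, ACTN2 varied most. It had 4.93 and 4.36 in DT6, 4.30 and 4.55 in D6, 4.63 and 4.42 in D2, and 5.32 and 4.60 in C. C array 1 alone stood above the rest, and the groups overlapped except D6 and C. TCAP, the telethonin that caps titin at the Z disc, had 5.27 and 5.19 in DT6, 5.36 and 5.50 in D6, 5.01 and 5.27 in D2, and 5.78 and 5.46 in C. It was lower in both DT6 and both D2 arrays than in C, with −0.48 ± 0.18 in D2 against C (adjusted p = 0.146, limma), and −0.61 ± 0.28 without the arrays rich in oral epithelium. TTN, the giant spring titin, lay between 4.75 and 5.44, with both extremes in DT6. ACTN3, the fast-fibre alpha-actinin, LDB3, MYOZ1, MYOT and XIRP2, further proteins of the Z disc and its attachments, had ranges of 0.31 to 0.77. DES, desmin, the intermediate filament of skeletal and smooth muscle alike, lay between 5.78 and 6.22.

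Smooth muscle, which vessel walls contain, shares desmin with skeletal muscle, so its markers are given beside it. The 12 markers had medians of 8.20 and 8.19 in DT6, 8.01 and 8.18 in D6, 7.99 and 8.17 in D2, and 7.97 and 7.86 in C. ACTA2, the actin of smooth muscle, lay between 9.48 and 10.12. ACTG2, which had the widest range of the 12, lay between 7.20 and 8.72. In DT6 against C 1 of the 12 rose past the threshold (adjusted p = 0.0264, limma), beside 3.04% of all genes that passed there.

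No calcium handling gene of the fibre passed. PVALB, the calcium buffer parvalbumin, had 3.85 and 3.27 in DT6, 3.43 and 3.64 in D6, 3.02 and 2.91 in D2, and 3.70 and 3.33 in C. The D2 arrays were the lowest of the 8. The differences were 0.57 ± 0.23 in D6 against D2 and −0.55 ± 0.23 in D2 against C (adjusted p = 0.574 and 0.192, limma). Without the arrays rich in oral epithelium they were 0.61 ± 0.37 and −0.50 ± 0.32. ATP2A1, the fast-fibre calcium pump of the sarcoplasmic reticulum, lay between 4.61 and 5.35, both in C. The release channel RYR1, the voltage sensor CACNA1S and the store protein CASQ1 had ranges of 0.43, 0.37 and 0.50.

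The member whose C arrays stood most clearly above the rest was MB, myoglobin, the oxygen store of muscle. It had 5.44 and 5.19 in DT6, 5.53 and 5.43 in D6, 5.35 and 5.31 in D2, and 5.89 and 5.83 in C. All 6 defect arrays were below both C arrays. The differences from C were −0.55 ± 0.16 in DT6, −0.38 ± 0.16 in D6 and −0.53 ± 0.16 in D2, and none passed in limma (adjusted p = 0.12, 0.282 and 0.0788). Without the arrays rich in oral epithelium the D6 and D2 differences were −0.43 ± 0.27 and −0.51 ± 0.27. These comparisons share the C arrays. CKMT2, the mitochondrial creatine kinase of muscle, and CACNA1S were likewise below C in all defect arrays, by smaller amounts. These 3 of 38 members stand beside 10.5% of all genes with that order, and 0 members had the opposite order, which 12.8% of all genes had. With the 4 defect arrays left after dropping D6 array 1 and D2 array 2, ACTA1 and MYOZ1 joined these 3 below C, beside 12.9% of all genes. In tissue extracts, fewer cells of a type and less RNA per cell cannot be told apart.

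MYOD1 and MYOG, the transcription factors that commit cells to muscle and drive their differentiation, did not pass in any comparison with all arrays. MYOD1 had 5.63 and 4.76 in DT6, 5.46 and 5.57 in D6, 5.72 and 5.58 in D2, and 5.68 and 5.53 in C. DT6 array 2 was low and the other 7 arrays lay close together. The DT6 minus C difference was −0.41 ± 0.26 (adjusted p = 0.464, limma). It was −0.85 (adjusted p = 0.0483) when DT6 array 1 was left out, which leaves DT6 array 2 alone. MYOG lay between 5.16 and 5.74, with values at both ends in DT6 and in C. TRIM63, a ubiquitin ligase that marks sarcomere proteins for breakdown in wasting muscle, lay between 5.73 and 6.22.

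The counts over the members follow, comparison by comparison. No member passed, but most had lower means in D2 than in C. D2 and C differ by the defect at 2 weeks and by airway, adipocyte and Schwann cell transcripts. In D2 against C 0 of 38 passed, where 8.4% of all genes did. An unadjusted p under 0.05 was reached by MB, TCAP and PVALB, 3 of 38, against 23.8% of all genes. In D2, 31 members had lower means than in C, against 51.9% of all genes, or 58.2% of the stratum below the median gene. The D2 and C arrays did not overlap for 15 members, 13 lower and 2 higher, beside backgrounds of 28.4% and 27.9%. The members' median difference was −0.14 and that of all genes −0.01. Leaving out a C array moved the members' median to −0.07 (array 1) or −0.26 (array 2), and leaving out a D2 array moved it to −0.08 (array 1) or −0.23 (array 2). Without D2 array 2 and D6 array 1 together 0 members passed, and 27 were lower and 3 higher with no overlap, beside 39.6% and 35.1% of all genes.

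In D6 against C 0 of 38 passed, beside 1.76% of all genes, and 2 (MYH1 and MB) had an unadjusted p under 0.05, beside 16.4%. The groups did not overlap for 14 members, 8 lower and 6 higher, with 22.7% and 25.8% of all genes in those orders. The median was −0.03, against 0.01 over all genes, and turned to 0.059 without C array 1. Leaving out C array 2 gave −0.17, while leaving out D6 array 1 or 2 gave −0.0185 or −0.06. Without both arrays rich in oral epithelium 0 members passed, and 13 were lower and 10 higher with no overlap, beside 33.5% and 37.1% of all genes. In DT6 against C 0 of 38 passed, beside 3.04%, and only MB had an unadjusted p under 0.05, where 17.6% of all genes did. Of the members, 9 were lower and 2 higher with no overlap, beside 19.5% and 22.1%. Their median of −0.07, against −0.01 over all genes, moved to −0.20 or 0.045 when DT6 array 1 or 2 was left out, and to 0.00 or −0.25 when C array 1 or 2 was.

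In D6 against D2, which differ in healing time and in airway transcripts, 0 of 38 passed, beside 1.68% of all genes. With all arrays PVALB alone had an unadjusted p under 0.05, against 7.88% of all genes. Here 14 members were higher and 3 lower with no overlap, with 23.5% and 19.8% of all genes in those orders. The median was 0.11, against 0.02 over all genes, and was 0.04 without D2 array 1, the array with the most lowest values, and 0.21 without D2 array 2. Without D2 array 2 and D6 array 1 together it was 0.17 and 0 members passed. Each group then had 1 array, so non-overlap has no meaning there. In that setting TNNC2 differed by 0.86 ± 0.36 and PVALB by 0.61 ± 0.37 in D6 against D2.

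DT6 and D6 differ in protraction and in airway and adipocyte transcripts, and D6 array 1 also carried oral epithelium transcripts. All 7 adipocyte genes of a list given below were higher in DT6 than in D6 with no overlap, beside 13.6% of all genes. Their median difference was 1.61. In DT6 against D6 no member passed the threshold, while 1.52% of all genes did. An unadjusted p under 0.05 was reached by 0 members, against 6.52% of all genes. The arrays did not overlap for 4 members that were higher and 5 that were lower, beside 13.6% and 15.4%. The median of −0.08, against −0.02 over all genes, was −0.18 without DT6 array 1, 0.050 without DT6 array 2, −0.06 without D6 array 2 and −0.087 without D6 array 1. Without both arrays rich in oral epithelium 0 members passed, and 10 were higher and 13 lower with no overlap, beside 25.3% and 31.5%. Across all comparisons 35 to 37 of the 38 members had 95% limma intervals that stayed within 1 log2 unit of no difference. The exceptions were TNNC2, ACTN2 and PVALB in D2 against C, MYH1 and ACTN2 in D6 against C, ACTA1 and TNNC2 in DT6 against C, TNNC2 and PVALB in D6 against D2, and ACTA1 in DT6 against D6.

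**Figure D4:**
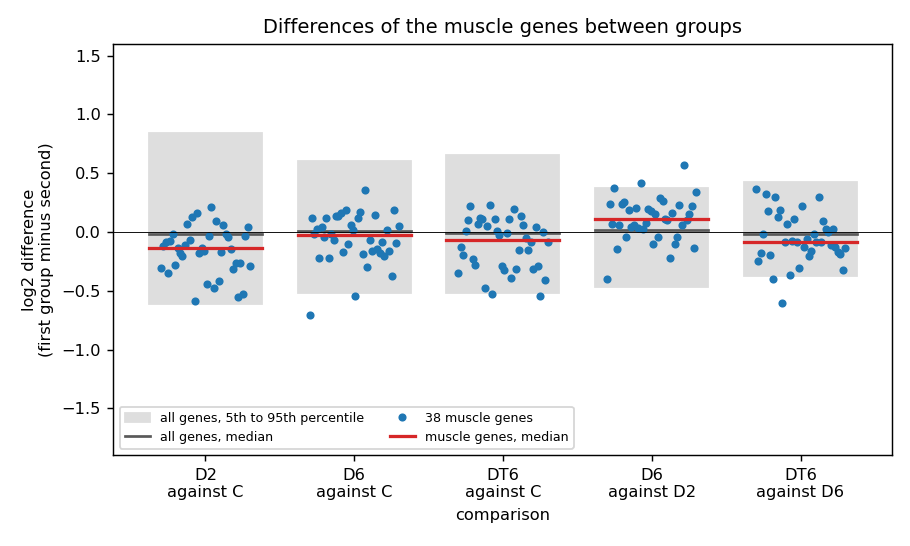
Log2 difference (first group minus second) of each of the 38 muscle genes (blue points) in the 5 comparisons, with their median (red) and the median and 5th to 95th percentile of all 15947 genes (dark line and grey band). The medians of the muscle genes lie between −0.14 and 0.11, and no single gene passed the threshold.

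A wider list of 91 further muscle genes, of which 82 were measured, was set beside the members. The adult fast myosin MYH4 lay between 3.90 and 4.94 and the fetal and atrial light chain MYL4 between 4.21 and 4.49. ACTC1, the cardiac actin also made by immature fibres, lay between 2.97 and 4.12, with both C arrays above all defect arrays (adjusted p = 0.0534 in D2 against C, limma). The muscle stem cell factor PAX7 lay between 5.23 and 5.65, and the muscle regulators MYF5 and MYF6 reached at most 5.43 and 5.53.

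In D2, 59 of the 82 genes had lower means than in C, against 51.9% of all genes. With no overlap, 35 were lower and 6 higher in D2 against C, beside 28.4% and 27.9% of all genes. In D6 against C 28 were lower and 11 higher with no overlap, beside 22.7% and 25.8%. In DT6 against C 21 were lower and 8 higher, beside 19.5% and 22.1%. Some genes of this list did pass in D2 against C: 1 rose and 5 fell of 82, beside 5.66% and 2.74% of all genes. Lists of other cell types went both ways in the same comparison. All 8 airway genes were higher and passed, with a median difference of 4.53. All 10 oral epithelium genes had higher means, with a median difference of 1.26, and none passed. Of 12 smooth muscle genes, 5 were higher and 7 lower, and 1 rose past the threshold (adjusted p = 0.0237, limma). Adipocyte and Schwann cell genes were lower. All 7 adipocyte genes had lower means in D2 than in C, with a median difference of −1.35, and PLIN1, PLIN4 and LEP passed. Their median value was 7.88 and 8.97 in DT6, 7.26 and 6.36 in D6, 7.31 and 7.33 in D2, and 8.64 and 8.75 in C. All 6 Schwann cell genes were lower too, with a median difference of −0.56, and PMP22 and CDH19 passed. The Schwann median was 6.99 and 6.89 in DT6, 6.14 and 6.55 in D6, 6.49 and 6.74 in D2, and 7.63 and 7.11 in C. The part of these cell types in the muscle genes that fell was not tested. PAX3, a factor of muscle precursors and of the neural crest, had 6.89 and 6.53 in DT6, 6.54 and 6.43 in D6, 6.75 and 7.56 in D2, and 5.48 and 5.66 in C. All 6 defect arrays were above C. It rose by 1.58 ± 0.25 in D2 against C (2.99-fold, adjusted p = 0.0081, limma), and by 1.18 without D2 array 2 (adjusted p = 0.0375). Without C array 1 its call ended (adjusted p = 0.0744). The differences of 1.14 ± 0.25 in DT6 and 0.92 ± 0.25 in D6 against C did not pass (adjusted p = 0.0512 and 0.111).

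MYPN, the Z disc protein myopalladin, had 4.72 and 4.24 in DT6, 4.39 and 5.75 in D6, 4.15 and 3.81 in D2, and 6.01 and 6.11 in C. The C arrays and D6 array 2 were high and the rest low. It fell by 2.08 ± 0.38 in D2 against C (adjusted p = 0.0143, limma). When any of the 4 arrays compared was left out, the difference was −2.25 to −1.92 and the call ended. Without D2 array 2 and D6 array 1 together the difference was −1.92 and the call stayed. Each of these settings leaves 1 array in a group. FABP3, a fatty acid carrier of heart and muscle, had 8.04 and 7.34 in DT6, 7.59 and 7.68 in D6, 8.60 and 7.90 in D2, and 6.58 and 7.43 in C. The D2 arrays lay above both C arrays, but the difference of 1.25 ± 0.33 did not pass (adjusted p = 0.0536). MYH15, a myosin heavy chain, lay between 3.91 and 5.35, with its highest value in DT6 array 2.

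The other genes that fell in D2 against C were not picked by range and are named here because they passed. They were DMD, dystrophin, by 0.85 ± 0.17, MYOM1, the M band protein myomesin, by 0.91 ± 0.19, TMOD1, which caps actin filaments, by 0.84 ± 0.20, and FBXO32, a ubiquitin ligase, by 0.91 ± 0.17 (adjusted p = 0.0208, 0.0208, 0.0389 and 0.0136, limma). MYOM1, TMOD1 and FBXO32 had their 3 highest values in the C arrays and DT6 array 2, as the adipocyte median did. DMD and MYPN had theirs in the C arrays and D6 array 2. Whether adipocytes have a part in these orders was not tested. DMD and TMOD1 are also made outside skeletal muscle, as in smooth muscle and in red cells. Of the 82 genes, 6 passed with all arrays. Most of these 6 calls ended when any D2 or C array was left out, which leaves 1 array in that group. All of them ended without C array 1. Without D2 array 2 and D6 array 1 the differences of DMD, MYOM1, TMOD1 and FBXO32 were −0.97, −0.76, −0.785 and −0.90, and their calls ended. In that setting, and without C array 2, the genes that passed were not all among the 6. In DT6 against C only DMD of the 82 fell, beside 0.746% of all genes, by 0.88 ± 0.17 (adjusted p = 0.0343, limma). That call ended when any single C, D2 or DT6 array was left out (adjusted p = 0.0554 to 0.192). None of the 82 passed in D6 against C, D6 against D2 or DT6 against D6 in limma, where 1.76%, 1.68% and 1.52% of all genes did. At an unadjusted p under 0.05 there were 16, 5 and 4 of the 82, beside 16.4%, 7.88% and 6.52% of all genes.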

How the data were processed

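The authors deposited 1 table of log2 probe set values for 8 arrays. Its 22708 probe sets lay between 0.91 and 14.5, with array medians of 6.25 to 6.31, and were taken as log2 and as normalized between arrays. How the authors summarised and normalized the deposited values, and to which log base, is not given in the sources used here. Arrays have no sequencing depth, and 2 arrays per group limit the precision. Groups and weeks came from the sample titles.

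The platform annotation gave a single symbol to 16545 probe sets. The highest mean was kept where a gene had several, which left 15947 genes, and no filter on dim genes was applied. Of the 38 members, 35 had an identifier in a RefSeq table of UU_Cfam_GSD_1.0, with the same symbol.

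Group means were compared by limma 3.58.1 under R 4.3.3 (lmFit on 4 group means over all 8 arrays, eBayes with a variance trend, two-sided, Benjamini-Hochberg adjustment over 15947 genes in each of 5 comparisons). The fit was tested on simulated data. Members and lists were chosen with earlier results of these data known, so lists get counts and medians and no test. Values in all 8 arrays are given for members past the threshold (there were none), for the member of widest range in each role, and for others chosen after their values were seen. The 4 further muscle genes of widest range and 6 preset ones are named. Titles number the arrays 1 and 2 in each group. Deviations of same-numbered arrays correlated between −0.26 and 0.19, so the numbers were not used as pairs. Alternatives were quantile normalization, median centring, averaged probe sets, no variance trend, a filter on dim genes, only the arrays compared, a replicate block, and each array left out.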

Additional observations from a re-analysis of the deposited data

How the results depend on the processing

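The count of members past the threshold stayed at 0 in all 5 comparisons under each alternative (limma), except that 1, MYOD1 in DT6 against C, passed without DT6 array 1. Under the filter only 9 of the 38 members were left, so that alternative says little of them. Of 2705 values of single members under the alternatives, 153 changed sign, none of them past the threshold with either sign. With arrays left out in turn, the members' median ranged from −0.26 to −0.07 in D2 against C, −0.17 to 0.059 in D6 against C, −0.25 to 0.045 in DT6 against C, 0.04 to 0.21 in D6 against D2 and −0.18 to 0.050 in DT6 against D6. Its sign is thus not settled in 3 of the 5 comparisons.

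The count over all genes moved more. With arrays left out in turn it ranged from 310 to 1940 in D2 against C (1339 with all arrays), from 0 to 683 in D6 against C (280; 0 without C array 1), from 127 to 719 in DT6 against C (484), from 145 to 315 in D6 against D2 (268) and from 154 to 318 in DT6 against D6 (243). Under the filter it was 173 in D6 against D2 and 144 in DT6 against D6, and with only the compared arrays 147 in DT6 against D6. Without D2 array 2 and D6 array 1, a setting chosen after seeing the data, it was 534 in D2 against C and 49 in D6 against C. The replicate block left 0 members past the threshold and gave 1048, 188, 373, 241 and 208 genes in the 5 comparisons, and TMOD1 then missed it (adjusted p = 0.0596). Alternatives for the further muscle genes were also added after seeing the data.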

Other observations

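The probe set shared by TPM3 and TPM1 had 7.13 and 7.03 in DT6, 7.29 and 7.10 in D6, 7.24 and 7.19 in D2, and 6.96 to 7.12 in C, and was not assigned to either gene. XIRP2 had a second probe set, which lay between 3.91 and 4.57.

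Values of 3 further muscle genes, chosen after they were seen, are as follows. TPM1 and TPM2, tropomyosins also made by smooth muscle and fibroblasts, lay between 10.64 and 11.24 and between 9.04 and 9.63. MEF2C, a transcription factor shared by muscle, bone and blood cells, lay between 10.36 and 10.94.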
